A study of Mus musculus with 130 samples.

Results

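The genes described here build and protect the DNA replication fork. The 35 genes were taken by symbol from the table of raw read counts: the helicase and its activators, fork protection factors, replicative polymerases and primase, the sliding clamp and its loader, the flap nuclease and ligase, the single-strand binding protein RPA, and factors of histone deposition and histone mRNA. All 35 were found once among the 52550 genes of the table, and all 35 passed the filter on low counts. The cells came from wild-type embryos of the FVB/NJ mouse strain with the FUCCI reporter, whose fluorescence follows the phase of the cell cycle, and the design asks how expression differs between phases. By label, the sorted gates were S-G2-M (GR), G1-S (YE), G1 (DR) and G0 (BR), beside unsorted cells (US). Each of these 5 fractions has 5 libraries. Preparations WT1 and WT2 were taken at E10.5, preparation WT3 at E11.5, and preparations 5 and 8 at E13.5. In every list of 5 values below, the order is WT1, WT2, WT3, 5 and 8. Whether 1 embryo or several went into a preparation is not stated by the labels, so p-values refer to the spread between libraries of these preparations. For changes over all days, that spread also includes differences of the change between days. E11.5 has 1 preparation per fraction, and its tests borrow the spread of the other days.

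Library totals ran from 14692256 to 58492064 counts (median 22852555), and levels are given as CPM, a count scaled to a common library total with TMM factors. The mitochondrial share of counts was 0.372 to 0.701% for preparations with a WT title and 1.66 to 3.42% for 5 and 8, so embryonic day and title style cannot be told apart. As a check of the gates, the summed level of 16 G2/M genes was 93 to 210 CPM in G0, 177 to 497 in G1, 2206 to 3503 in G1-S and 5935 to 6902 in S-G2-M. The gates also differed in cell types. Summed neuronal markers reached 3226 to 5955 CPM in G0 and 114 to 544 in G1-S and S-G2-M. Summed hepatocyte markers stood at 2033 and 1514 CPM in the G1-S libraries of preparations 5 and 8, against 7.17 to 110 CPM in the other 18 sorted libraries. In sorted bulk RNA, fewer cells of a type and less RNA per cell cannot be told apart.

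As background, the replisome forms at origins that were loaded with the MCM2-7 helicase in G1. The kinase pair Cdc7 and Dbf4, with Ticrr (treslin), brings Cdc45 and the GINS complex to MCM2-7, which makes the active helicase. Polymerase alpha with primase then starts each strand, polymerase epsilon copies the leading strand and polymerase delta the lagging strand, both held by the clamp Pcna that RFC loads. RPA covers the single strand, Fen1 and Lig1 join Okazaki fragments, and the Timeless-Tipin-Claspin complex protects the fork. Chaf1a and Chaf1b place histones on the new DNA, and Slbp binds histone mRNA. Many of these genes are known targets of E2F factors, which turn on transcription before S phase.

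As a group, the replication fork genes were lowest in G0, higher in G1 and higher again in G1-S. Their summed level was 755, 927, 1088, 966 and 936 CPM in G0 and 1760, 2330, 2279, 1395 and 1407 CPM in G1. It was 5056, 4419, 5116, 3456 and 3678 CPM in G1-S and 3835, 3947, 4081, 3221 and 3371 CPM in S-G2-M. In each preparation the sum was highest in G1-S. From G0 to G1, 32 of 35 genes rose over all days (edgeR quasi-likelihood test, adjusted p under 0.05), where 18.2% of all 23506 genes tested rose. The median log2 change was 1.0 for the 35 genes and 0.01 for all genes. Fitted log2 changes are given ± SE throughout. The 3 that did not pass were Rpa3 (0.14 ± 0.18), Gins4 (0.27 ± 0.15) and Dbf4 (0.32 ± 0.14). From G1 to G1-S, 35 of 35 rose, with 11.7% of all genes rising and medians of 1.21 and 0.01. The smallest of these changes was that of Rfc1 (0.55 ± 0.09) and the largest that of Cdc45 (2.06 ± 0.18).

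Both steps were also seen within each title style. In the WT-titled preparations alone 32 genes rose from G0 to G1 (13.4% of all genes rose) and 34 from G1 to G1-S (4.90%). In preparations 5 and 8 alone the counts were 29 (20.2%) and 35 (22.5%). By day, 34 genes rose from G1 to G1-S at E10.5 (6.67% of all genes rose), 33 at E11.5 (6.34%) and 34 at E13.5 (11.4%). Far fewer passed at E11.5 without preparation 5 or 8, and at E13.5 without 8, and this also held over all genes tested. The 5 G1 values lay above all 5 G0 values for 21 genes (6.10% of all genes tested), and the 5 G1-S values above all 5 G1 values for 28 (5.25%). Over all genes the split of calls depended on the scaling: 62% of the calls from G1 to G1-S were higher, against 51.9% with RLE scaling, 50.3% with DESeq2, 50.1% without the 2 abundant genes Gm26917 and Gm42418, and 36% with library totals only. From G0 to G1 the share was 50.2%, and 60.7% with library totals only. All 35 fork genes rose from G1 to G1-S under each of these scalings. Markers moved with these steps: from G0 to G1 6 of 6 neuronal and 4 of 5 cardiac genes fell, and 6 of 6 macrophage, 5 of 6 erythroid, 4 of 4 mesenchyme and 4 of 4 neural progenitor genes rose. From G1 to G1-S 6 of 6 hepatocyte, 6 of 6 macrophage and 5 of 5 cardiac genes rose and 3 of 6 neuronal genes fell. Summed macrophage markers were 5.51 to 13.7 CPM in G0, 29.9 to 56.9 in G1, 80.8 to 311 in G1-S and 6.86 to 13.6 in S-G2-M. Of all markers Ahsg alone was at 0 in any library, in 1 each of G0, G1-S and unsorted cells. The part of these cell types in the changes of the fork genes was not tested.

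**Figure D1:**
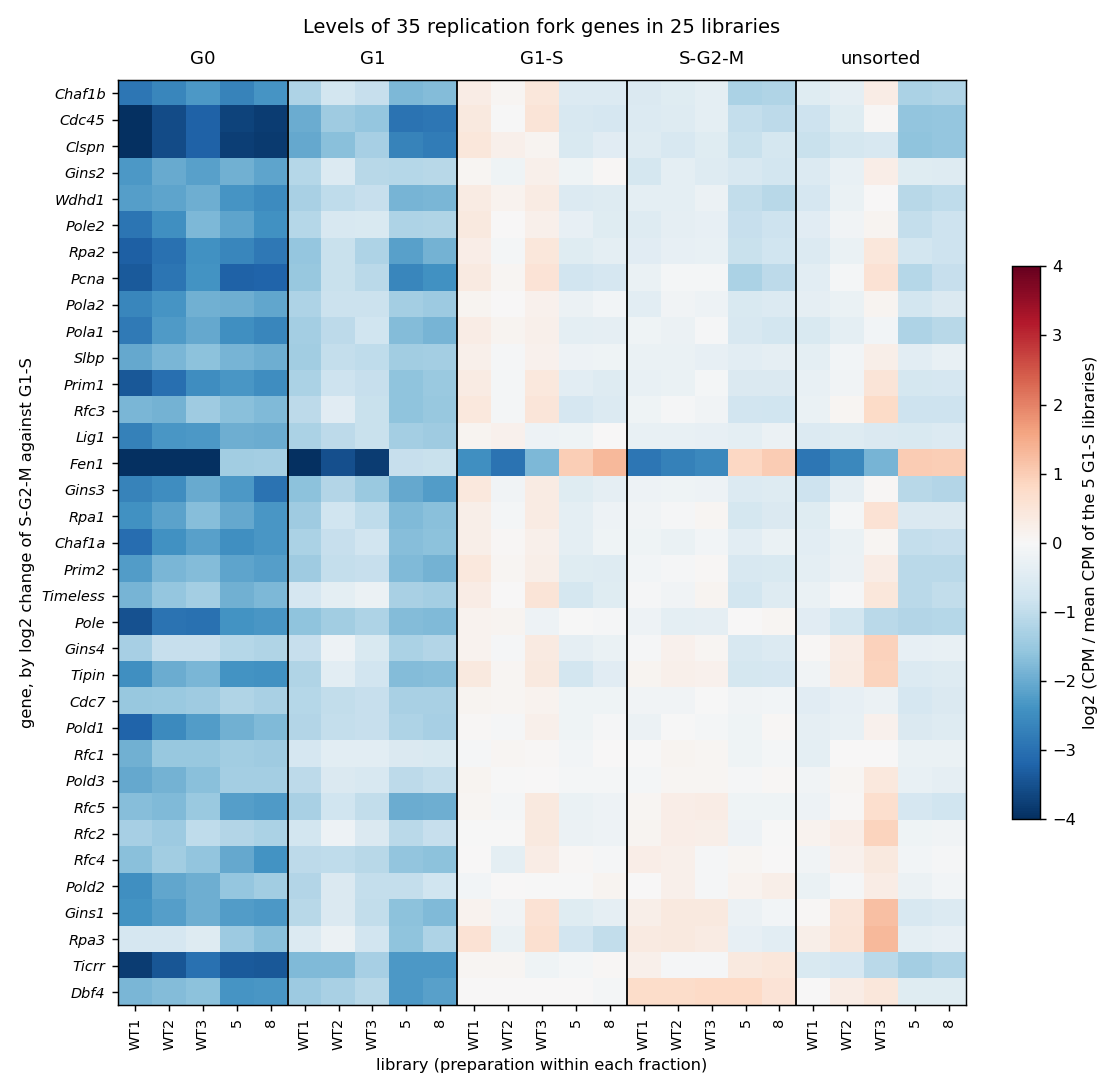
Levels of the 35 genes (rows, ordered by the fitted change of S-G2-M against G1-S) in 25 libraries (columns, 5 preparations in each fraction); colour is log2 of CPM over the gene's mean in the 5 G1-S libraries, and the scale ends at 4 in both directions. G0 is blue for nearly all genes, G1-S and S-G2-M are close to white, Dbf4 (bottom row) is red in all 5 S-G2-M libraries, and Fen1 splits by preparation.

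Over all days the gate of highest mean level was G1-S for 26 genes and S-G2-M for 9, and never G0 or G1. The split was 25 to 10 at E10.5, 31 to 4 at E11.5 and 23 to 12 at E13.5. By preparation, G1-S was highest for 27, 20, 31, 22 and 23 genes. At all 3 days 21 genes were highest in G1-S and 2, Dbf4 and Ticrr, were highest in S-G2-M. The gate differed between days for 12: Gins1, Gins4, Cdc7, Pold1, Pold2, Pold3, Pole, Rfc1, Rfc2, Rfc4, Rfc5 and Rpa3. Dbf4 alone was highest in S-G2-M in all 5 preparations, and 17 genes were highest in G1-S in all 5.

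Ordered by the change from G1-S to S-G2-M, the list ran from Chaf1b to Dbf4. Over all days 9 genes fell, where 10.1% of all genes tested fell, and 1 rose, where 7.28% rose. The 9 were Chaf1b (-0.72), Cdc45 (-0.61), Clspn (-0.60), Gins2 (-0.59), Wdhd1 (-0.57), Pole2 (-0.56), Rpa2 (-0.52), Pola2 (-0.37) and Slbp (-0.32), as log2 changes. The gene that rose was Dbf4 (log2 change 0.72 ± 0.13 (SE), adjusted p = 0.00081). The median log2 change was -0.24 for the 35 genes and 0.00 for all genes. The 5 values of the gates did not overlap for 4 genes, Gins2, Dbf4, Lig1 and Slbp, with 7.94% of all genes not overlapping. In all 5 preparations 17 genes were lower in S-G2-M, with 15.1% of all genes. The count of 9 was 4 in the WT-titled preparations alone (Cdc45, Chaf1b, Clspn and Wdhd1), where 6.96% of all genes fell, and 13 in preparations 5 and 8 alone, where 13.8% fell. It was 4 without preparation 8 (6.90% of all genes) and 3 without preparation WT3 (6.92%), a share of the 35 genes near that of all genes. With the replicate block it was 10, where 10.6% of all genes fell.

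At single days fewer genes passed. At E10.5 6 fell (Clspn, Cdc45, Chaf1b, Pole2, Wdhd1 and Lig1), with 8.59% of all genes falling. At E11.5 2 fell (Cdc45 and Chaf1b), with 3.19% of all genes. At E13.5 3 fell (Chaf1b, Gins2 and Wdhd1), with 5.01% of all genes. Chaf1b was the 1 gene that fell at all 3 days. Dbf4 rose at all 3 days, by log2 changes of 0.72, 0.78 and 0.71, and Ticrr rose at E13.5 (log2 change 0.43 ± 0.12 (SE), adjusted p = 0.0292); 7.92%, 1.89% and 2.17% of all genes rose at the 3 days. With the preparation as a replicate block, 14 genes fell at E10.5 and 6 at E11.5. With that block 3134 of 23506 genes tested fell at E10.5 and 1768 at E11.5. Without preparation 5 or 8 the count of fork genes fell at each day, with no call left at E11.5 or E13.5. Without WT2 it rose at each day, and without WT1 it rose at E11.5 and E13.5. Calls over all genes tested moved the same way in each case, and each omission leaves no replicate at E10.5 or at E13.5. The lowest gene of the order was Clspn at E10.5 (-0.92), Cdc45 at E11.5 (-0.89) and Chaf1b at E13.5 (-0.67), and the highest was Dbf4 at each day. The order of the 35 changes was alike between days, with Spearman's rho of 0.64 (E10.5 and E11.5), 0.77 (E10.5 and E13.5) and 0.72 (E11.5 and E13.5); this is across genes that share libraries, and genes are not independent replicates.

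**Figure D2:**
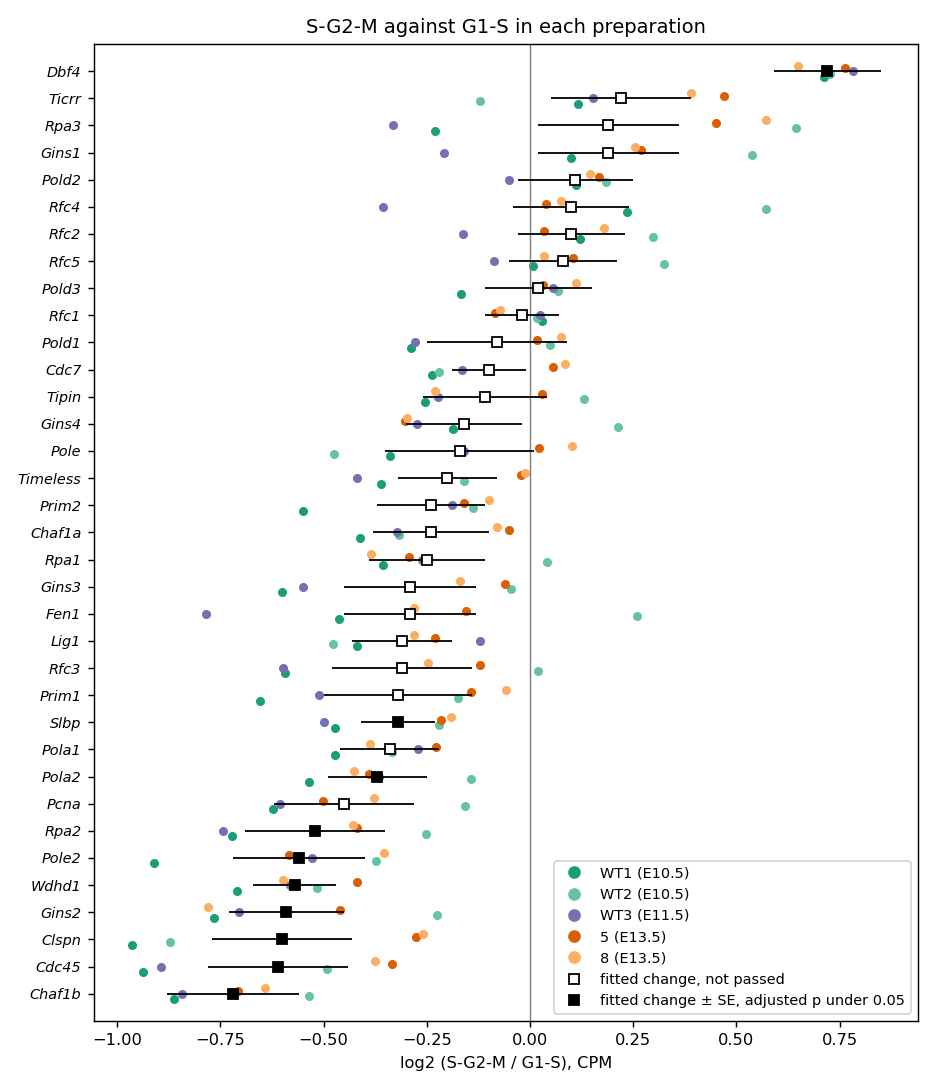
Log2 ratio of S-G2-M to G1-S for each gene (rows, in order of the fitted change): circles are the 5 preparations coloured by preparation and day, squares the fitted change over all days with its SE, filled where the adjusted p was under 0.05. Chaf1b sits lowest at -0.72, Dbf4 highest at 0.72 with its 5 circles close together, and most genes between them lie left of 0.

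To show where the extremes of this order start, the 150 bases before the RefSeq start of the 3 lowest and the 3 highest genes are printed 5′ to 3′ on the gene's strand (GRCm38.p6). Capitals mark CCAAT, or its reverse complement ATTGG.
Chaf1b (chr16:93883751-93883900, + strand): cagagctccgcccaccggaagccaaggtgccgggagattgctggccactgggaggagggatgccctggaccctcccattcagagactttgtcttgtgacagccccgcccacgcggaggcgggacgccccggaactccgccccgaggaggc
Cdc45 (chr16:18811973-18812122, - strand): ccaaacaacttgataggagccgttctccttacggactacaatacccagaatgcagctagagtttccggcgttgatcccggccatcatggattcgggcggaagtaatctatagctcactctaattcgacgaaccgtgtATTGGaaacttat
Clspn (chr4:126556830-126556979, + strand): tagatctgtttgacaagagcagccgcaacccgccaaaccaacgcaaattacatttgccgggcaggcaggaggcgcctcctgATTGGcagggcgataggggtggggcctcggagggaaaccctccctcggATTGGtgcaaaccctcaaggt
Rpa3 (chr6:8259142-8259291, - strand): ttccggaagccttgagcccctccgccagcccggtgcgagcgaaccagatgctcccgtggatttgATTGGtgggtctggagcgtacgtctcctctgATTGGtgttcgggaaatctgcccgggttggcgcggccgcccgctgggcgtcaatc
Ticrr (chr7:79660046-79660195, + strand): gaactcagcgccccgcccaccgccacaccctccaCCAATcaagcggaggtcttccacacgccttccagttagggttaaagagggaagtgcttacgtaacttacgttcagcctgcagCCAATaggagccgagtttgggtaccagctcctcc
Dbf4 (chr5:8422717-8422866, - strand): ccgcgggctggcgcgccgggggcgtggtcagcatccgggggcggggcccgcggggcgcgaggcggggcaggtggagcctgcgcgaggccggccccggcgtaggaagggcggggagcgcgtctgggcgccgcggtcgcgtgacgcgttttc

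Chaf1b and Dbf4, the ends of the order, hold none of the searched letters in these 150 bases. Cdc45 holds 1 CCAAT match, and Clspn, Rpa3 and Ticrr hold 2 each. A match is a description of letters, not a binding site.

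Of the 8 helicase and activator genes, Dbf4 was at the upper end of the order and Cdc45 next to its lower end. All 8 rose from G1 to G1-S and 6 rose from G0 to G1. From G1-S to S-G2-M Cdc45 and Gins2 fell and Dbf4 rose. Cdc45, the factor that joins GINS and MCM2-7, stood at 7.62, 10.1, 12.7, 9.24 and 8.63 CPM in G0 and 29.9, 44.2, 40.9, 15.3 and 16.0 CPM in G1. It reached 157, 118, 170, 77.2 and 74.7 CPM in G1-S and 82.2, 84.2, 91.4, 61.2 and 57.6 CPM in S-G2-M. Each preparation was highest in G1-S, and preparations 5 and 8 were lower there than the WT-titled ones. The mean level in G1-S was 12.4 times that in G0, and the change to S-G2-M passed (log2 change -0.61 ± 0.17 (SE), adjusted p = 0.0155).

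Dbf4, the activating subunit of the Cdc7 kinase, stood at 31.3, 33.6, 35.1, 21.6 and 22.1 CPM in G0 and 40.2, 44.6, 50.8, 22.5 and 24.6 CPM in G1. It reached 112, 111, 113, 113 and 104 CPM in G1-S and 183, 183, 194, 192 and 163 CPM in S-G2-M. The G1-S values were nearly level across days, and every S-G2-M value was above every G1-S value. Cdc7, its kinase partner, showed 95.2, 92.7, 98.6, 78.0 and 78.0 CPM in G1-S and 80.7, 79.6, 87.9, 81.1 and 82.8 CPM in S-G2-M. These groups overlapped, with S-G2-M lower in the WT-titled preparations and higher in 5 and 8 (log2 change -0.10 ± 0.09 (SE), adjusted p = 0.501). Ticrr stood at 8.4, 10.9, 14.6, 11.4 and 11 CPM in G0, 124, 124, 103, 111 and 121 CPM in G1-S and 134, 114, 114, 154 and 159 CPM in S-G2-M. It was higher in S-G2-M in 4 of 5 preparations, WT2 being the exception, and the change over all days did not pass (log2 change 0.22 ± 0.17 (SE), adjusted p = 0.424). In preparations 5 and 8 alone, Dbf4, Ticrr and Rpa3 rose, with log2 changes of 0.72, 0.44 and 0.52, where 9.68% of all genes rose. The share of the 35 genes that rose there was near that of all genes.

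**Figure D3:**
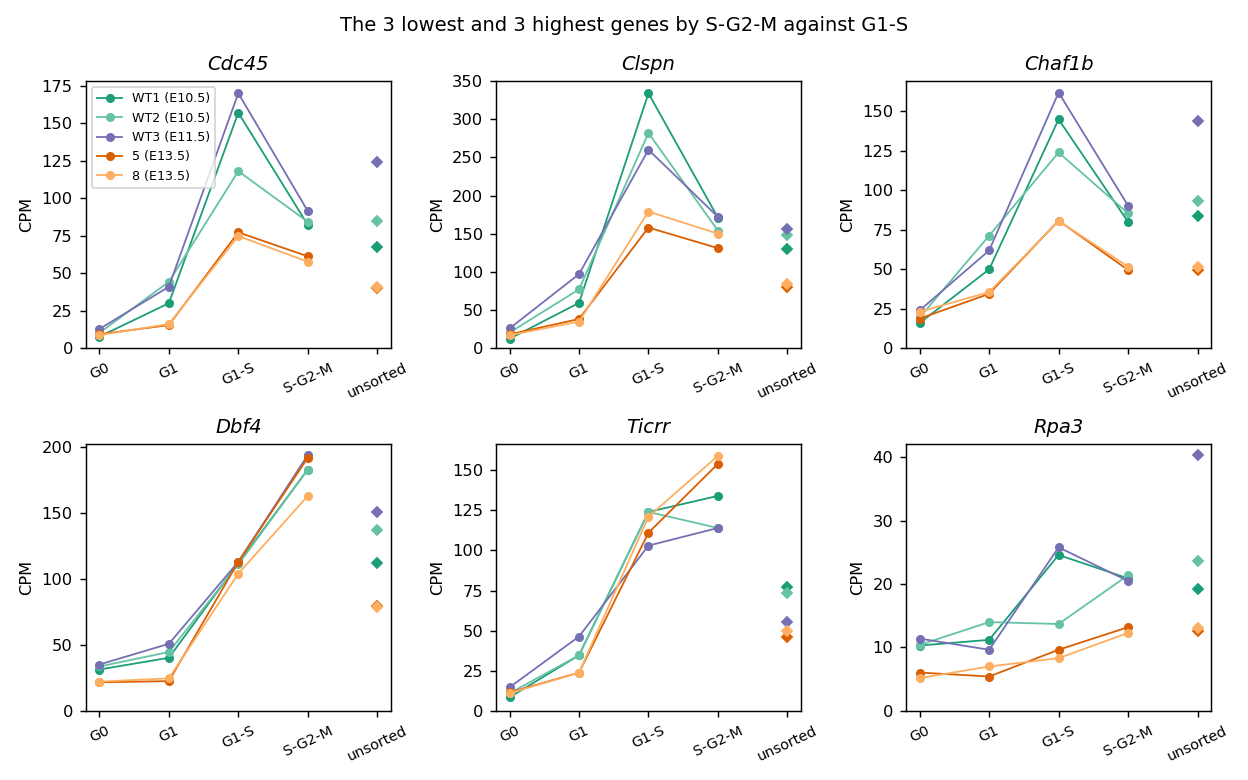
CPM (linear axis from 0) of the 3 lowest and the 3 highest genes by the change from G1-S to S-G2-M, in the 4 sorted gates (circles joined within a preparation) and unsorted cells (diamonds), coloured by preparation and day. Cdc45, Clspn and Chaf1b peak in G1-S in each preparation, Dbf4 goes on rising to 163 to 194 CPM in S-G2-M, and Rpa3 shows no common peak.

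The 4 GINS subunits, which travel with the helicase, had 1 gene that fell after G1-S. This was Gins2 (log2 change -0.59 ± 0.14 (SE), adjusted p = 0.00445), with 42.2, 35.5, 46.1, 35.6 and 41.0 CPM in G1-S and 24.8, 30.3, 28.3, 25.8 and 23.9 CPM in S-G2-M. Gins1 was at 41.7, 33.9, 56.7, 26.7 and 29.2 CPM in G1-S and 44.7, 49.2, 49.1, 32.2 and 34.9 CPM in S-G2-M, higher in S-G2-M except in WT3 (log2 change 0.19 ± 0.17 (SE), adjusted p = 0.518). Gins4 was at 56.4, 49.6, 65.5, 39.9 and 42.6 CPM in G1-S and 49.5, 57.6, 54.2, 32.4 and 34.7 CPM in S-G2-M. It was lower in S-G2-M except in WT2 (log2 change -0.16 ± 0.14 (SE), adjusted p = 0.502). Gins3 was lower in S-G2-M in all 5 preparations, without passing (log2 change -0.29 ± 0.16 (SE), adjusted p = 0.218). Exons of Gse1 on the opposite strand cover 67.3% of the exon bases of Gins2 (chr8:120578633-120589304, GRCm38). Whether reads were counted by strand is not given in the sources used here, so this overlap may raise or lower the values of Gins2. The fitted log2 change of Gse1 itself between these gates was 0.04 (adjusted p = 0.943).

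All 4 fork protection genes rose at both earlier steps, and 2 fell into S-G2-M. Clspn (Claspin, the adaptor of the replication checkpoint kinase Chk1) had the largest change from G0 to G1 (log2 change 1.64 ± 0.18 (SE), adjusted p = 1.95e-07). It stood at 12.2, 20.3, 25.7, 18 and 16.9 CPM in G0, 334, 282, 260, 158 and 179 CPM in G1-S and 171, 154, 172, 131 and 150 CPM in S-G2-M. The change was -0.92 ± 0.18 at E10.5 and -0.27 ± 0.18 at E13.5, and the test of that difference did not pass (adjusted p = 0.297). Wdhd1 (And-1, which links polymerase alpha to the helicase) fell (log2 change -0.57 ± 0.10 (SE), adjusted p = 0.000361). Tipin stood at 117, 94.2, 119, 54.7 and 66.1 CPM in G1-S and 97.8, 103, 102, 55.8 and 56.3 CPM in S-G2-M, with overlapping groups (log2 change -0.11 ± 0.15 (SE), adjusted p = 0.683). For its partner Timeless the log2 change was -0.20 ± 0.12, and neither passed.

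The 9 polymerase and primase genes rose at both earlier steps. Into S-G2-M 2 fell, the small subunits Pole2 and Pola2; DESeq2 called 3. Pole2, the second subunit of polymerase epsilon, was at 48.1, 37.2, 42.2, 28.9 and 26 CPM in G1-S and 25.6, 28.7, 29.2, 19.3 and 20.4 CPM in S-G2-M (log2 change -0.56 ± 0.16 (SE), adjusted p = 0.0152). Pole, the catalytic subunit, was at 265, 260, 212, 241 and 237 CPM in G1-S and 209, 187, 190, 245 and 254 CPM in S-G2-M. Pole was higher in G1-S in the WT-titled preparations and higher in S-G2-M in 5 and 8 (log2 change -0.17 ± 0.18 (SE), adjusted p = 0.589). The polymerase delta genes had log2 changes near 0. Pold1, the catalytic subunit, was at 145, 135, 161, 125 and 137 CPM in G1-S and 119, 140, 133, 126 and 144 CPM in S-G2-M. Pold2 was at 44.6, 48.4, 47.5, 46.6 and 50.9 CPM and 48.2, 55.1, 45.8, 52.3 and 56.3 CPM, and Pold3 at 108, 101, 103, 96.6 and 96.5 CPM and 96.3, 106, 107, 98.7 and 104 CPM, in the same gates. Their changes were -0.08 ± 0.17, 0.11 ± 0.14 and 0.02 ± 0.13, and none of these 3 passed with edgeR. In the alpha-primase complex, Pola1 (-0.34 ± 0.12), Prim1 (-0.32 ± 0.18) and Prim2 (-0.24 ± 0.13) were lower in S-G2-M in all 5 preparations without passing, beside Pola2 (log2 change -0.37 ± 0.12 (SE), adjusted p = 0.0416).

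All 6 clamp and loader genes rose from G0 to G1 and from G1 to G1-S. From G1-S to S-G2-M none of them passed over all days with edgeR (1 had an unadjusted p under 0.05, and DESeq2 called 1 lower). Pcna, the sliding clamp, stood at 34.5, 46.9, 66.9, 37.4 and 38.1 CPM in G0, 453, 369, 509, 207 and 221 CPM in G1-S and 294, 331, 334, 146 and 170 CPM in S-G2-M. It was lower in S-G2-M in all 5 preparations (log2 change -0.45 ± 0.17 (SE), adjusted p = 0.0626). For the loader, fitted changes ran from -0.31 to 0.10. Rfc1, the large subunit, was at 180, 197, 192, 174 and 187 CPM in G1-S and 184, 199, 195, 164 and 178 CPM in S-G2-M, within 10% of each other in each preparation. Rfc2 was at 92.0, 91.2, 121, 78.6 and 80.6 CPM in G1-S and 100, 112, 108, 80.4 and 91.3 CPM in S-G2-M. Rfc2, Rfc4 and Rfc5 were each higher in S-G2-M in 4 of 5 preparations, all but WT3. Rfc4 was at 31.7, 24.0, 38.5, 32.3 and 30.1 CPM in G1-S and 37.3, 35.7, 30.1, 33.1 and 31.7 CPM in S-G2-M. Rfc5 was at 82.3, 74.4, 102, 65.0 and 67.2 CPM and 82.7, 93.3, 95.6, 69.8 and 68.7 CPM in these gates. The fitted changes were 0.10 ± 0.13 for Rfc2, 0.10 ± 0.14 for Rfc4, 0.08 ± 0.13 for Rfc5 and -0.31 ± 0.17 for Rfc3.

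RPA, the trimer that coats single-stranded DNA, had 1 gene of 3 that fell into S-G2-M. This was Rpa2 (log2 change -0.52 ± 0.17 (SE), adjusted p = 0.038), from 137, 107, 157, 81.9 and 88.0 CPM in G1-S to 83.0, 90.2, 93.8, 61.2 and 65.3 CPM in S-G2-M. For Rpa1 the log2 change was -0.25 ± 0.14, which did not pass. Rpa3 was at 10.3, 10.4, 11.4, 6.03 and 5.15 CPM in G0, 24.6, 13.7, 25.8, 9.63 and 8.30 CPM in G1-S and 20.9, 21.4, 20.5, 13.2 and 12.3 CPM in S-G2-M. It was higher in S-G2-M in WT2, 5 and 8 and lower in WT1 and WT3 (log2 change 0.19 ± 0.17 (SE), adjusted p = 0.513). Rpa3 also had the smallest change from G0 to G1 of the 35 genes. The ligase Lig1 was at 226, 233, 181, 186 and 212 CPM in G1-S and 169, 168, 166, 158 and 175 CPM in S-G2-M. These groups did not overlap, and the change over all days did not pass (log2 change -0.31 ± 0.12 (SE), adjusted p = 0.068).

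Among the chromatin genes, Chaf1b had the deepest drop of the 35 genes from G1-S to S-G2-M. This subunit of the histone chaperone CAF-1 stood at 15.9, 19.4, 23.9, 18.7 and 23.0 CPM in G0, 145, 124, 162, 80.8 and 80.6 CPM in G1-S and 80.0, 85.4, 90.3, 49.5 and 51.7 CPM in S-G2-M. Each preparation fell (log2 change -0.72 ± 0.16 (SE), adjusted p = 0.00369), while the groups overlapped, with 5 and 8 below the other preparations in both gates. Its partner Chaf1a has 52.5% of its exon bases under exons of Ubxn6 on the opposite strand, which may raise or lower its values. Chaf1a was at 212, 188, 210, 140 and 160 CPM in G1-S and 160, 151, 168, 135 and 151 CPM in S-G2-M (log2 change -0.24 ± 0.14 (SE), adjusted p = 0.287). Slbp, which binds the stem-loop of histone mRNA, fell without overlap from 184, 157, 182, 139 and 142 CPM to 133, 135, 129, 120 and 125 CPM (log2 change -0.32 ± 0.09 (SE), adjusted p = 0.0205).

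The fork genes were set beside other genes of replication over the same step from G1-S to S-G2-M. Of the 6 MCM2-7 genes 4 fell, with a median log2 change of -0.50: Mcm6 (-0.76), Mcm4 (-0.63), Mcm3 (-0.56) and Mcm2 (-0.45). Of 8 origin licensing genes 3 fell, Cdc6 (-1.77), Cdt1 (-0.85) and Orc1 (-0.35). All 16 G2/M genes rose, with a median of 1.27. Among 52 further genes of fork factors, checkpoint, translesion synthesis and histone chaperones, 8 fell and 9 rose, with a median of 0.06. Of 26 other fork factors 7 fell and 3 rose; the lowest were Dscc1 (-0.83 ± 0.21), which loads Pcna in an alternative RFC complex, Pold4 (-0.82 ± 0.19), the small subunit of polymerase delta, and the nuclease Dna2 (-0.70 ± 0.09). Of 12 genes of the replication checkpoint and fork restart 5 rose, among them Hus1 (0.49 ± 0.10) of the 9-1-1 clamp and its loader subunit Rad17 (0.40 ± 0.08). The translesion polymerase gene Polh also rose (0.40 ± 0.13), as 1 of 8 translesion genes. Over the same step 5 of 5 cardiac, 6 of 6 hepatocyte, 6 of 6 macrophage, 4 of 4 endothelial, 4 of 6 erythroid and 4 of 6 neuronal markers fell and 3 of 4 neural progenitor markers rose, whose part in these changes was not tested.

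The rise from G0 to G1 was smaller at E13.5 than at E10.5 for 14 genes. At E10.5 34 of 35 genes rose from G0 to G1 (18.9% of all genes rose), with a median log2 change of 1.34. At E13.5 23 rose (9.85% of all genes), with a median of 0.58. The difference of the change, E13.5 minus E10.5, was below 0 and passed for 14 genes, where 2.47% of all genes passed in that direction, and its median was -0.76 for the 35 genes and -0.10 for all genes. The polymerase genes Prim1 (-1.33 ± 0.23), Pold1 (-1.22 ± 0.23), Pole (-1.1 ± 0.20), Pola2 (-0.84 ± 0.19) and Pold3 (-0.79 ± 0.19) were among the 14. The others were Cdc45, Ticrr, Clspn, Pcna, Rfc3, Lig1, Rpa2, Chaf1b and Chaf1a, the last with the opposite-strand overlap given above. Prim1, the catalytic subunit of primase, shows the 2 sides of this difference: it was at 8.87, 11.6, 16.8, 18.7 and 16.9 CPM in G0 and 39, 53.4, 49.5, 30.8 and 33.5 CPM in G1, with 5 and 8 above WT1 and WT2 in G0 and below them in G1. These calls were lost without preparation 5 or 8, and more genes passed without WT1. The count over all genes tested moved the same way, and each of these omissions leaves no replicate at E13.5 or at E10.5. Of the G2/M genes 2 of 16 passed in the same direction, and summed neuronal markers in G0 were 5057 to 5955 CPM in the WT-titled preparations and 3226 to 3367 in 5 and 8; the part of such differences was not tested.

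**Figure D4:**
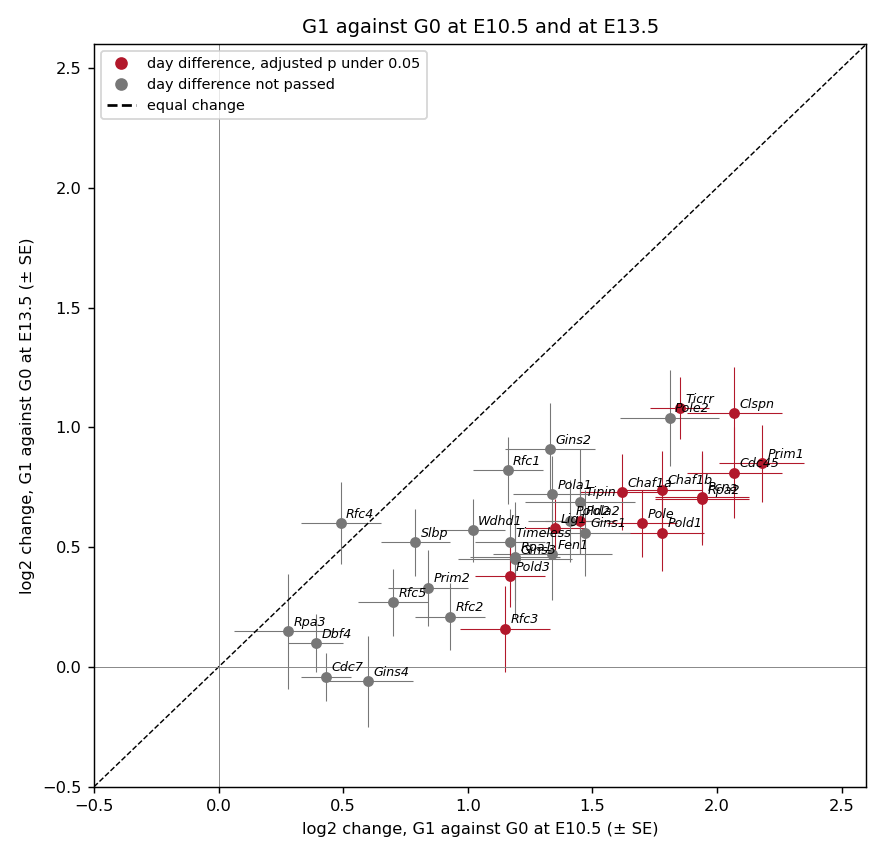
Log2 change of G1 against G0 at E10.5 (horizontal axis) and at E13.5 (vertical axis) for each of the 35 genes, with SE bars; red marks the 14 genes whose day difference passed. All genes but Rfc4 lie below the dashed line of equal change.

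At the step from G1 to G1-S the day difference passed for Dbf4 (log2 change 0.81 ± 0.16 (SE), adjusted p = 0.00687) and Fen1 (log2 change 1.0 ± 0.27 (SE), adjusted p = 0.0418), where 3.70% of all genes passed in that direction. With the replicate block, and with DESeq2, it also passed for Rfc4 and Rfc5, so the count was 4. Over all genes, 1697 of 23506 passed in that direction with the block and 1079 of 18037 with DESeq2. The calls were lost without preparation 5 or 8 and grew in number without WT1, and the count over all genes tested moved the same way. Over the same step 13 of 16 G2/M genes had a larger rise at E13.5; their summed level in G1-S was 2206 to 2230 CPM in the WT-titled preparations and 3279 and 3503 CPM in 5 and 8. At the step from G1-S to S-G2-M the day difference passed for 0 genes with edgeR and 0 with DESeq2 (4 at an unadjusted p under 0.05), where 1.02% of all genes passed in either direction. Without WT1 or without WT2 this day difference passed for more genes, both here and over all genes tested. On simulated counts this test recovered 0.0% of changes of 1.5-fold, 13.4% of changes of 2-fold and 63.6% of changes of 4-fold over 23219 genes. Those counts held no other gate differences and no shared deviation of a preparation, so the rates may differ in the real libraries.

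Within fractions, E13.5 was compared with E10.5. In unsorted cells 23 genes were lower (28.7% of all genes were lower), in G1 24 (28.5%), in G1-S 17 (19.8%) and in S-G2-M 13 (24.1%). The medians were -0.55, -0.62, -0.37 and -0.32 for the 35 genes, and -0.08, -0.11, -0.02 and -0.07 for all genes. In G0 8 genes were higher (20.4% of all genes) and 4 were lower (22.5%), with a median of 0.13. The share of the 35 genes that was higher was near that of all genes, and no role group was tested as a set. Of the 8, 6 were polymerase or primase genes: Pold1 (1.0), Pole (0.85), Prim1 (0.80), Pold2 (0.79), Pold3 (0.59) and Pola2 (0.48). The other two were Lig1 (0.52) and Fen1. Pold1 in G0 was at 15.3, 24.2, 30.2, 37.5 and 41.1 CPM, and Pole at 21.8, 31.1, 30.7, 46.7 and 48.4 CPM, with both E13.5 preparations above the other 3. The 4 lower genes were Dbf4, Rfc4, Rfc5 and Rpa3. Without preparation 5 or 8 fewer genes were higher in G0, and fewer were lower in unsorted cells, G1, G1-S and S-G2-M. Without WT2 more were higher in G0, and without WT1 more were lower in S-G2-M. Counts over all genes tested moved the same way, and each omission leaves no replicate at E13.5 or at E10.5. Title style and day are the same split here and cannot be told apart.

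**Figure D5:**
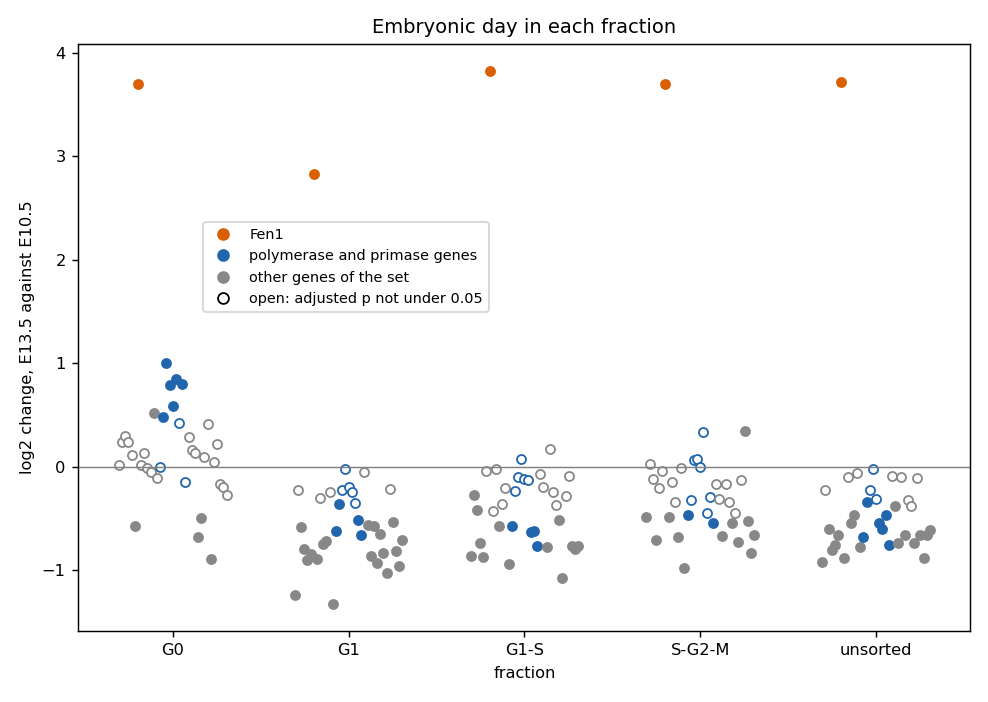
Log2 change of E13.5 against E10.5 for each of the 35 genes in the 5 fractions; filled points passed at an adjusted p under 0.05, blue marks polymerase and primase genes and orange Fen1. Blue points lie at or above 0 in G0, except 1 just below it, and mostly below 0 elsewhere, and Fen1 stands alone between 2.83 and 3.83.

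Fen1, the nuclease that removes flaps from Okazaki fragments, stood apart by preparation in every fraction. It was at 1.33, 1.88, 2.19, 20.3 and 20.9 CPM in G0, 9.86, 6.90, 15.4, 105 and 130 CPM in G1-S and 7.22, 8.87, 14.8, 107 and 105 CPM in unsorted cells. The log2 changes of E13.5 against E10.5 were 3.70 in G0, 2.83 in G1, 3.83 in G1-S, 3.70 in S-G2-M and 3.72 in unsorted cells. Fen1 lies at chr19:10199132-10204169 on the minus strand (GRCm38), and exons of Gm10143 and Tmem258 on the opposite strand cover 84.2% of its exon bases. Over all genes tested, 44.5% of the 391 genes with at least 50% of their exon bases under opposite-strand exons rose by a log2 change over 2 between these days in unsorted cells, against 4.64% of the 17149 genes with none. Of the same 391 genes 17.9% fell by a log2 change under -2, against 15.2% of the genes with none. In unsorted cells Gm10143 and Tmem258 themselves changed by -1.82 and -0.27, and Gins2, which also has such an overlap, by -0.10. The part of the overlap in the day values of Fen1, and in its day difference from G1 to G1-S, was not tested. Within each day Fen1 rose from G1 to G1-S, by log2 changes of 1.04, 1.99 and 2.04.

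In WT3 a larger share of fork genes than of all genes was higher in unsorted cells than in any gate. In WT1, 5 and 8 the share was smaller than that of all genes, and in WT2 it was near it. In WT3 16 of the 35 genes were higher in unsorted cells than in each of the 4 gates, and in WT1, WT2, 5 and 8 it was 1, 7, 4 and 1. Over all genes tested the shares were 28.4% in WT3 and 14.6%, 16.7%, 27.0% and 27.6% in WT1, WT2, 5 and 8. With library totals only, a setting added after seeing the data, the count in WT3 was 9 (18.9% of all genes). With RLE scaling it was 18 (29.1%). The TMM factor of the WT3 unsorted library was 0.8058, the lowest of all libraries. Rpa3 in unsorted cells was at 19.2, 23.7, 40.4, 12.6 and 13.1 CPM, and Gins4 at 52.2, 61.9, 95.3, 40.6 and 41.8 CPM. The median ratio of unsorted cells to the highest gate was 0.658, 0.879, 0.977, 0.757 and 0.727. Summed erythroid markers were 14860 to 32470 CPM in unsorted cells and at most 2799 CPM in a sorted library. The part of erythroid cells in the unsorted levels was not tested.

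Levels of different genes were compared per length, as CPM per kb of exon in G1-S (mean ± SD, n = 5). The length is that of all annotated exons of a gene joined, not that of the transcripts present. The order of genes therefore also depends on the annotation. Pcna was the highest of the 35 at 147 ± 56.4. In RPA, Rpa1 (40.3 ± 8.46) and Rpa2 (38.2 ± 10.7) lay within their spread and Rpa3 was at 14.4 ± 7.28. In GINS the order was Gins4 (37.7 ± 7.73), Gins1 (24.8 ± 7.96), Gins3 (13.7 ± 3.82) and Gins2 (9.78 ± 1.11), whose place is uncertain because of its overlap with Gse1. This order is the inverse of that of the joined exon lengths (1349, 1516, 2709 and 4097 bases). Before division by length, their mean levels in G1-S were 50.8, 37.65, 36.99 and 40.06 CPM. In RFC, Rfc1 was at 30.9 ± 1.52 and Rfc2 at 14.7 ± 2.71, with Rfc3 (24.8 ± 8.72), Rfc4 (20.4 ± 3.39) and Rfc5 (16.7 ± 3.16) between them. Polymerase alpha and primase ran from Pola1 (29.1 ± 6.24) and Prim1 (24.3 ± 7.17), within their spread, to Prim2 (17.6 ± 5.05) and Pola2 (12.3 ± 1.38). Polymerase delta showed Pold1 at 29.0 ± 2.82, Pold2 at 25.1 ± 1.22 and Pold3 at 22.0 ± 1.06. In polymerase epsilon, Pole was at 21.8 ± 1.89 and Pole2 at 12.7 ± 3.17.

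The promoters were searched for motifs because all 35 genes rose from G1 to G1-S. RefSeq windows of 300 bases (250 before to 50 after the start) were found for 28 of the 35 genes. The E2F-type letters TTTCCCGC, TTTGGCGC, TTTCGCGC or TTTGCCGC, on either strand, were in the windows of 8 of these 28 genes (28.6%), and in 2.6% of the 27025 genes with a window. CCAAT was in 15 of 28 (53.6%) against 41.1% of all genes, and the CHR-type letters TTTGAA or TTCGAA in 7 of 28 (25%) against 21.7%. This set is shown because the match was more frequent than over all genes, and it was chosen after the matches were seen. Matches are in capitals with up to 10 bases on each side, 5′ to 3′ on the gene's strand (GRCm38.p6).
Clspn (chr4:126556991-126557018, + strand): ccgcgtctggGCGCGAAAgctcgaactt
Gins3 (chr8:95633508-95633535, + strand): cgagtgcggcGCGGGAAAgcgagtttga
Lig1 (chr7:13278842-13278869, + strand): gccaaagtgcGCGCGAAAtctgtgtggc
Pola1 (chrX:93632276-93632303, - strand): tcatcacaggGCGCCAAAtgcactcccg
Pold1 (chr7:44548766-44548786, - strand): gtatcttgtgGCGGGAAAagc
Pold3 (chr7:100121468-100121495, - strand): agcgaagctgTTTCCCGCcggcgggagc
Pole2 (chr12:69228163-69228190, - strand): gtcggcggtgGCGCCAAAtcgcgaacat
Rfc3 (chr5:151651191-151651218, - strand): tttcgcgctcGCGGGAAAactctactgt
Rfc3 (chr5:151651201-151651228, - strand): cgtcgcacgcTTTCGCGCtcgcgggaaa

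Rfc3 holds 2 such matches whose windows overlap, 1 on each strand. The match begins 138 bases before the start in Pola1 and 41 before it in Gins3, and after the start in Clspn, Lig1, Pold1, Pold3 and Pole2. In Rfc3 1 match begins 10 bases before the start and the other at it. Dbf4, Ticrr and Cdc45 hold no such match in their windows, which says only that these letters are not there. The 7 genes with CHR-type letters were Cdc45, Cdc7, Dbf4, Fen1, Gins3, Pold2 and Rfc3.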

How the data were processed

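RNA-seq libraries were made from rRNA-depleted total RNA, per the labels' protocols, for 25 samples sequenced over 130 lanes. The deposited values are raw read counts per gene; the submitters' processing notes name STAR 2.5.3, HTSeq 0.8.0 and mm10. For that counting, the annotation and any strand setting were not given in the sources used here. Lanes were summed per sample by the names in the column headers; lanes of a sample differed little beyond sampling noise (dispersion index 1.09 to 1.227). Every row named a gene.

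The fits used edgeR 4.0.16 in R 4.3.3 (quasi-likelihood F test, robust, TMM scaling, filterByExpr by fraction with a minimum count of 10 and total of 15, Benjamini-Hochberg over 23506 genes, threshold 0.05). A model of fraction and day gave the changes over all days, and a model with a mean per fraction and day gave those at single days, the day differences and the comparisons between days. G1 against G0 at single days was added after values were seen. DESeq2 1.42.0, RLE scaling, library totals only, no filter, scaling without Gm26917 and Gm42418, a replicate block, each title style alone and leaving out each preparation were alternatives. Libraries with the same prefix deviated together (r of 0.145 to 0.725 for WT1 and WT2 and 0.249 to 0.567 for 5 and 8, over 13051 genes). The prefix, taken from the titles, was therefore read as pairing the libraries, and only the replicate block uses this pairing. The values reported come from the fits without the block, so their p-values leave the pairing out. Blocked counts are given where they moved a count by over 1.5 times.

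Positions, exon lengths and opposite-strand overlap came from a GENCODE annotation of GRCm38, and promoters from RefSeq (GRCm38.p6). Values in every library are given for the genes at the ends of the order, at the ends of each role group, and where the highest gate differed between days; further genes were described after their values were seen. The members and the lists were chosen with earlier results of these data known. On simulated counts the test of S-G2-M against G1-S over all days recovered 50.7% of 1.5-fold, 88.1% of 2-fold and 98.5% of 4-fold changes over 23212 genes, with 4.82% false calls. Apart from the changed genes, the simulated means differed by day only, and libraries of a preparation did not deviate together. The spread was taken from the model with a mean per fraction and day. These rates may therefore not hold for the real libraries.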

Additional observations from a re-analysis of the deposited data

Results flagged for a closer look

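In 4 of 175 groups of 5 libraries (35 genes in 5 fractions) 1 library lay apart from the others by Dixon's criterion, which chance meets in about 1 in 20 groups, a larger share than was found. Gins2 in G1 was at 27.3 CPM in WT2, with the next library at 18.7. Gins2 in unsorted cells was at 47.7 CPM in WT3, with the next at 32.6. Dbf4 in G1-S was at 104.0 CPM in preparation 8, below the next at 111.0, and Rfc1 in G0 was at 49.1 CPM in WT1, below the next at 64.8.

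The change from G0 to G1 differed between days for 14 genes, as the log2 change at E13.5 minus that at E10.5 (edgeR, adjusted p under 0.05). Among helicase and fork protection genes the difference was -1.26 for Cdc45, -0.76 for Ticrr and -1.02 for Clspn. Among polymerase and primase genes it was -1.33 for Prim1, -1.22 for Pold1, -1.1 for Pole, -0.84 for Pola2 and -0.79 for Pold3. It was -1.22 for Pcna, -0.99 for Rfc3, -0.77 for Lig1, -1.24 for Rpa2, -0.89 for Chaf1a and -1.04 for Chaf1b. From G1 to G1-S it was 0.81 for Dbf4 and 1.0 for Fen1. These calls were lost without preparation 5, and without preparation 8. Either omission leaves no replicate at E13.5, and calls over all genes tested fell as well.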

How the results depend on the processing

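Of 93 changes of single genes that passed, all 93 also passed with DESeq2, RLE scaling and the replicate block, 87 with library totals only, 75 without preparation 5 and 72 without 8. The change of Cdc7 from G0 to G1 turned to -0.06 in preparations 5 and 8 alone. From G1-S to S-G2-M over all days, 4 genes fell in the WT-titled preparations (6.96% of all genes fell), and 3 rose in preparations 5 and 8 (9.68% rose). Omitting 1 preparation gave 3 (WT3, 6.92% of all genes) to 9 (WT2, 7.57%) that fell. At E10.5 6 fell, and 14 with DESeq2, library totals or the replicate block, 12 with RLE scaling or no filter, and 1 to 20 on omitting a preparation. At E11.5 2 fell, and 6 with the block, 1 without Gm26917 and Gm42418, and 0 to 15 on omission; at E13.5 0 to 14. From G1 to G1-S omission gave 12 to 35 at E11.5 and 14 to 35 at E13.5. The day difference from G0 to G1 passed for 9 with library totals and 0 to 29 on omission. That from G1 to G1-S passed for 4 with DESeq2 or the block, 1 with library totals or without Gm26917 and Gm42418, and 0 to 16 on omission. That from G1-S to S-G2-M passed for 1 with no filter and 0 to 4 on omission. Between E13.5 and E10.5 omission gave 4 to 16 higher genes in G0, and lower genes of 9 to 32 in G1, 5 to 23 in G1-S, 1 to 20 in S-G2-M and 9 to 30 in unsorted cells; no block could be fitted there, since each preparation has 1 day. Calls over all genes tested also differed between these settings. From G1-S to S-G2-M at E10.5, 2019 of 23506 genes fell in the main fit, 3134 with the replicate block and 2394 with library totals. With RLE scaling 2161 fell, with DESeq2 2429 of 21683, and with no filter 2813 of 41706. At E11.5 751 fell, 1768 with the block and 639 without Gm26917 and Gm42418. At single days and between days, the same calls over all genes tested also fell without preparation 5 or 8. They rose without WT1 or WT2. Over all genes the day difference from G0 to G1 passed below 0 for 580, and for 407 with library totals. That from G1 to G1-S passed above 0 for 870, for 1697 with the block and for 1079 of 18037 with DESeq2. It passed above 0 for 627 with library totals and 703 without Gm26917 and Gm42418. The cause of these shifts was not tested. Precision is limited by 2 preparations at E10.5 and E13.5 and 1 at E11.5, and the effect of depth was not tested.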
